A study of Mus musculus with 18 samples.

Results

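WT CD4+ T cells taken from the spleens of mixed bone marrow chimeras, in which they had developed and lived beside ∆Foxp3 T cells, were compared with WT CD4+ T cells of intact mice. The cells were chosen by the sample name in the deposited cell table: 3 chimera samples of WT cells and 2 samples of intact WT mice read with the same kit. They held 3436 and 1166 cells, together 4602 of the 26652 cells and 5 of the 18 samples of the series. Unique molecular identifiers (UMIs, 1 per captured RNA molecule) were summed per sample within each of the 3 classes the authors assigned to the cells, which are resting conventional T cells (Tconv), activated Tconv and regulatory T cells (Treg). The comparison addresses whether WT T cells keep the profile of cells from an intact mouse when they share a host with cells that cannot make functional Foxp3.

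All mice were male, and all cells were sorted from spleen as DAPI- TCRb+ CD4+ cells. The intact WT mice were B6 Foxp3-IRES-GFP x CD45.1 animals of 9 weeks, with no further gate. The chimeras were CD45.2 recipients that had received 1000 rad at 7 weeks and then 4000000 marrow cells depleted of CD3+ cells, 50% from a WT donor of that strain and 50% from a ∆Foxp3 donor (B6 mice with Foxp3DeltaEGFPiCre, ROSA-YFP and CD45.1/2). Spleens were taken 10 weeks later. The age label reads 16 weeks, while 7 and 10 weeks add up to 17. Chimera WT cells were gated as CD45.1+ CD45.2-, a gate that leaves out cells of the recipient and of the ∆Foxp3 donor. Each chimera also gave a sample of ∆Foxp3 cells (CD45.1+ CD45.2+). ∆Foxp3 mice aged 3 weeks (B6 Foxp3DeltaEGFPiCre x ROSA-YFP, 2 samples) supplied a scale of change without any WT cells. These mice differ from the intact WT mice in age as well as genotype, and the 2 cannot be told apart in that comparison. GFP- Tconv and GFP+ Treg cells sorted from WT mice of 9 weeks (2 samples each) served as a further set of intact controls. Age, irradiation with transplant, the CD45 gate and the presence of ∆Foxp3 cells all differ between the chimera and intact samples. So does the animal the cells derive from, a marrow donor for the chimera samples. What each contributes cannot be told apart.

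Foxp3 is the transcription factor that specifies Treg, the CD4+ T cells that restrain other T cells. Mice without functional Foxp3 develop a fatal lymphoproliferative disease in which many conventional T cells become activated, and some of them divide and produce cytokines. In a mixed chimera only the WT marrow can give functional Treg, and these Treg act on both the WT and the mutant T cells of the host.

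Samples were told apart by hashtags, short DNA barcodes on antibodies that coat the cells before pooling. The tags are shown because they bear on which samples may share a mouse. The chimera samples carried Hash2, Hash3 and Hash4, each shared by the WT and the ∆Foxp3 sample with the same replicate number. Samples that shared both number and tag were taken as 1 of 3 chimera mice. Both intact WT samples carried Hash6. They are given 5′ to 3′.
Hash2: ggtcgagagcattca
Hash3: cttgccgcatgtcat
Hash4: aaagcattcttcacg
Hash6: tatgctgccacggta
The intact samples were thus told apart only by the 10x channel they were loaded in and may come from 1 mouse. In that case the spread between them is technical, and p-values against them rest on that spread. The same holds for the 2 samples each of ∆Foxp3 mice, sorted Tconv and sorted Treg, which share 1 tag per group.

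The chimera samples held 747, 1850 and 839 cells and 4695455, 9496000 and 5434171 UMIs, and the intact samples 814 and 352 cells and 4364625 and 2402201 UMIs. Median UMIs per cell were between 4969 and 6489. Chimera samples 1 and 3 and intact sample 2 were in channel B, and chimera sample 2 and intact sample 1 in channel A, so each channel held both groups. Of 17 class markers, 12 were higher in their own class in each of the 5 samples than in the other classes of any sample, among them Ctla4 and Il2ra for Treg, Cd44 and S100a4 for activated Tconv, and Ccr7 and Lef1 for resting Tconv. None of the cells is marked as a doublet in the deposited table (highest Scrublet score 0.293), and no cell barcode was shared between the channels. Cells with a marker of another cell type (B, myeloid, CD8 T, NK, erythroid or gamma delta) made up 13.5, 11.9 and 12.3% of the chimera samples and 16.3 and 16.8% of the intact ones. The share was lower in all chimera samples. A cell counted if it held at least 1 UMI of any marker, among them Klrd1. In resting cells Klrd1 had 62, 137 and 79 UMIs in the chimera samples and 115 and 45 in the intact ones. It is itself among the genes called lower in resting chimera cells, so the share depends on a tested gene. Without the cells holding another marker and the NKT cells, 32 genes passed between chimera and intact samples in resting cells (31 of them among the 39 given below). In activated cells 10 passed (4 in common with the full set) and in Treg 4.

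In the deposited cell table chimera WT sample 1 is listed with the strain of the ∆Foxp3 donor, and chimera ∆Foxp3 sample 2 with that of the WT donor, against their sample names and CD45 gates. Foxp3 measured apart from the reporters was 8.09, 4.11 and 3.68 CPM (UMI counts scaled to the same library total in every sample) in the 3 chimera WT samples, 0.916 and 3.75 CPM in the intact ones and 0.589, 1.501 and 0.789 CPM in the ∆Foxp3 cells of the chimeras. Chimera WT sample 1 held the highest of these values, and it held 0 Cre UMIs like the other 4 WT samples compared. Chimera ∆Foxp3 sample 2 also held 0 Cre UMIs, so Cre does not tell these libraries apart. Their names were followed, and the number of genes called in each comparison of chimera WT cells is also given without chimera WT sample 1.

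The shares of the 3 classes did not differ by more than the spread between samples allows to detect. Resting Tconv made up 68.9, 74.3 and 72.9% of the chimera samples and 80.8 and 71.9% of the intact ones. Activated Tconv made up 21.3, 16.9 and 18.2% and 14.6 and 19.9%. Treg made up 9.77, 8.76 and 8.82% of the chimera samples against 4.55 and 8.24% of the intact ones. The intact samples differed from each other by more than the chimera samples did, and the groups overlapped for the resting and activated classes but not for Treg. In both groups the resting share was higher in channel A (74.3% chimera, 80.8% intact) than in channel B (68.9 and 72.9% chimera, 71.9% intact). The tests of shares had no channel term. None of the 3 differences passed the edgeR test on cell numbers (adjusted p = 0.648, 0.648 and 0.396), and the exact two-sided permutation test over the samples gave p = 0.6, 0.6 and 0.2, where 0.2 is the smallest p that 3 against 2 samples allow. In the ∆Foxp3 mice resting Tconv made up 47.6 and 45.5% of cells.

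Among the 12 clusters found in the samples, 1 differed in share. The authors' cluster Tconv_activated_2 held 2.68, 2.27 and 2.62% of the chimera cells and 0.614 and 0.852% of the intact cells, a log2 ratio of 1.83 (SE 0.43, edgeR adjusted p = 0.0246). This was 20, 42 and 22 cells against 5 and 3 cells. The cluster held 3.31 and 4.05% of the sorted WT Tconv samples, which are also from intact mice of 9 weeks, and 3.32, 4.07 and 2.12% of the ∆Foxp3 cells of the chimeras. The chimera WT samples were thus above the unsorted intact samples and below the sorted ones. The adjusted p was 0.0627 without chimera sample 1, 0.0629 without chimera sample 3, 0.573 without intact sample 1 and 0.0768 without intact sample 2. The Th1 cluster held 3.61, 2.81 and 3.34% and 4.67 and 3.98%, the dividing activated cluster 1.87, 0.757 and 1.55% and 1.97 and 1.99%, and the follicular helper cluster 3.61, 5.46 and 3.58% and 1.97 and 4.26%, and none of these passed the test.

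**Figure D1:**
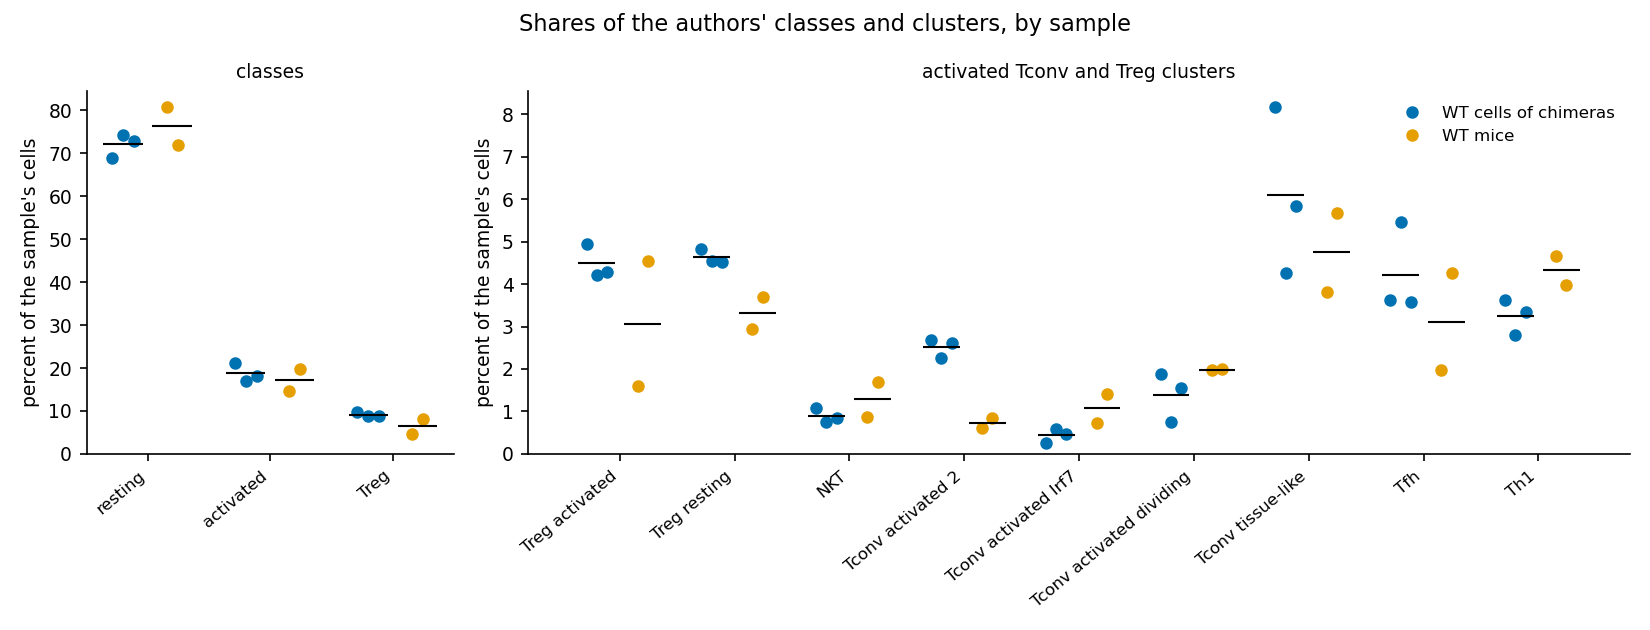
Percent of each sample's cells in the authors' classes (left) and in the activated Tconv and Treg clusters (right), for the 3 chimera WT samples (blue) and the 2 intact WT samples (orange). Points are samples and lines group means. Tconv_activated_2 was 2.27 to 2.68% in the chimera samples and 0.614 to 0.852% in the intact ones, and none of the other clusters passed the test.

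In resting Tconv, few genes differed between WT cells of chimeras and of intact mice. Of 10182 genes tested, 39 passed an edgeR adjusted p of 0.05, which is 0.383%. Of these, 14 were higher in the chimera cells (0.137%) and 25 lower (0.246%), and 817 genes had an unadjusted p under 0.05. The same fit called 4222 genes (41.5%) between ∆Foxp3 mice and intact WT mice, and 2633 without intact sample 1. These counts share the intact control samples and are set side by side only to give a scale. The median absolute log2 difference over all genes was 0.14 in the chimera comparison and 0.41 in the ∆Foxp3 mice. Among 4740 genes with a mean of at least 20 CPM, 3 differed by more than 1 on the log2 scale in the chimera cells and 428 in the ∆Foxp3 mice.

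The differences fell into a small number of groups: the LIM-domain gene Crip1, the Qa-2 genes H2-Q6 and H2-Q7, mitochondrially encoded transcripts, small nuclear and nucleolar RNAs, and single genes of low or moderate level. Of the 39 genes, 14 passed the test with each sample left out in turn and under every other alternative that kept them, and 38 kept their direction throughout. Without chimera sample 1, 29 genes passed, 24 of them among the 39. The count was 22 without chimera sample 2 and 21 without intact sample 1. With the channel as a term, 73 genes passed (18 higher, 55 lower) and all 39 were among them. The split between higher and lower genes depended on the scaling: with library totals alone in place of TMM factors it was 17 higher and 10 lower, and with DESeq2 6 higher and 61 lower.

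**Figure D2:**
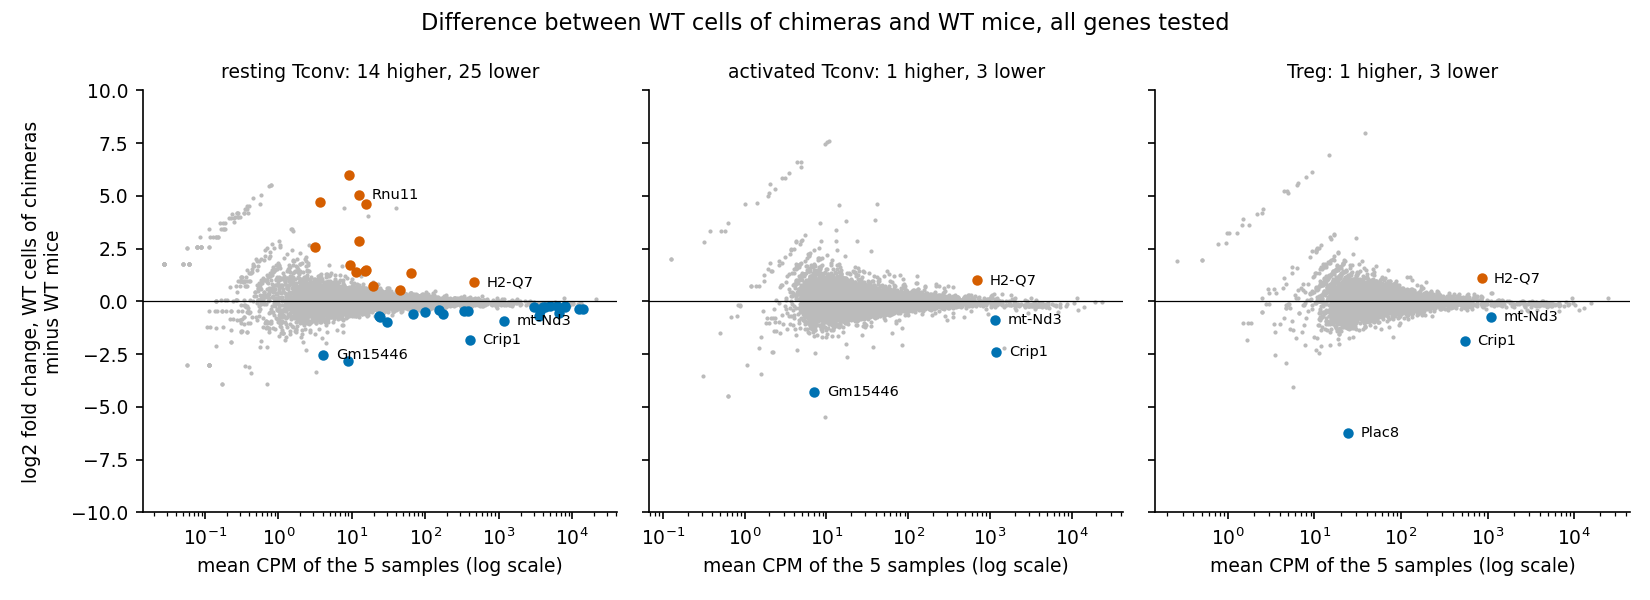
Log2 fold change between WT cells of chimeras and of intact mice (vertical axis) against the mean CPM of the 5 samples (horizontal axis, log scale), for each gene tested in the 3 classes. Orange and blue points passed the edgeR test as higher and lower, 14 and 25 in resting Tconv, 1 and 3 in activated Tconv and 1 and 3 in Treg, and grey points did not.

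Genes of activated and memory T cells, which rise in ∆Foxp3 mice, were close to the intact level in the resting Tconv of the chimeras. Of the 28 such genes tested, none rose and Crip1 and Ccl5 fell, with a median log2 difference of 0.14 beside 0.00497 over all genes. DESeq2 called the same 2 genes and gave 11 of the 28 no adjusted p, and 7 had an unadjusted p under 0.05. In ∆Foxp3 mice all 28 rose (22.2% of all genes did), with a median of 3.71 beside -0.00353 over all genes. Their summed level was 1985, 1769 and 1734 CPM in the chimera WT samples, 2053 and 2196 CPM in the intact samples and 20204 and 21938 CPM in the ∆Foxp3 mice. The chimera samples all lay below the intact ones, whereas the ∆Foxp3 mice stood far above both. The order of chimera and intact samples came from Crip1: without it the sums were 1772, 1532 and 1562 CPM in the chimera samples and 1336 and 1513 CPM in the intact ones, with all chimera samples above.

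Single markers of the list were as follows in resting Tconv. S100a4, a calcium-binding protein of memory T cells, was 25.6, 29.6 and 31.9 CPM in the chimera samples, 21.9 and 45.5 CPM in the intact ones and 2514 and 2658 CPM in ∆Foxp3 mice. Its difference from the intact samples was -0.14 (SE 0.23, adjusted p = 0.929). Cd44, the adhesion receptor that marks antigen-experienced T cells, was 16.3, 14.3 and 16.1 CPM against 11.4 and 20.5 CPM, and 92.4 and 94.7 CPM in ∆Foxp3 mice. Its log2 difference was -0.012 (95% interval -0.43 to 0.40, adjusted p = 1). For both genes the chimera values lay between the 2 intact values or close to them.

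Th1 and cytotoxic genes were also near the intact level in resting Tconv. Of 19 tested, none rose and Ccl5 fell (median 0.14), while 16 rose and 1 fell in ∆Foxp3 mice (median 4.39). Over all genes 22.2% rose and 19.2% fell in ∆Foxp3 mice. The summed level of the list was 144, 148 and 161 CPM in the chimera samples against 144 and 203 CPM in the intact ones, and 4474 and 4370.3 CPM in ∆Foxp3 mice. Ccl5, a chemokine of effector T cells, was 17.2, 22.9 and 26.7 CPM against 42.7 and 40.4 CPM, a difference of -0.97 (SE 0.17, adjusted p = 0.00429). It was 17.95, 18.5 and 18.5 CPM in the ∆Foxp3 cells of the same chimeras and 16.3 and 42.1 CPM in the sorted WT Tconv samples. Both chimera populations were thus below the intact samples, while the sorted controls spanned the range of both. Within the largest resting cluster the direction turned, to 0.25 (adjusted p = 0.875), and without intact sample 1 the adjusted p was 0.252.

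Cell cycle and naive T cell genes likewise stayed close in resting Tconv. Of 28 cell cycle genes none passed the edgeR test, none had an unadjusted p under 0.05 and DESeq2 called none, though it gave 24 of them no adjusted p. Their median was 0.018, and 26 rose in ∆Foxp3 mice (22.2% of all genes did) with a median of 3.54. The summed level was 1416, 1309 and 1333 CPM in the chimera samples and 1191 and 1374 CPM in the intact ones. Of 22 genes of naive and resting T cells, 20 fell in ∆Foxp3 mice (19.2% of all genes did) and 1, Dapl1, fell in the chimera cells (medians -1.99 and -0.028). Klf2, a transcription factor of quiescent T cells, differed by -0.24 (SE 0.064, adjusted p = 0.146), and DESeq2 called it lower.

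**Figure D3:**
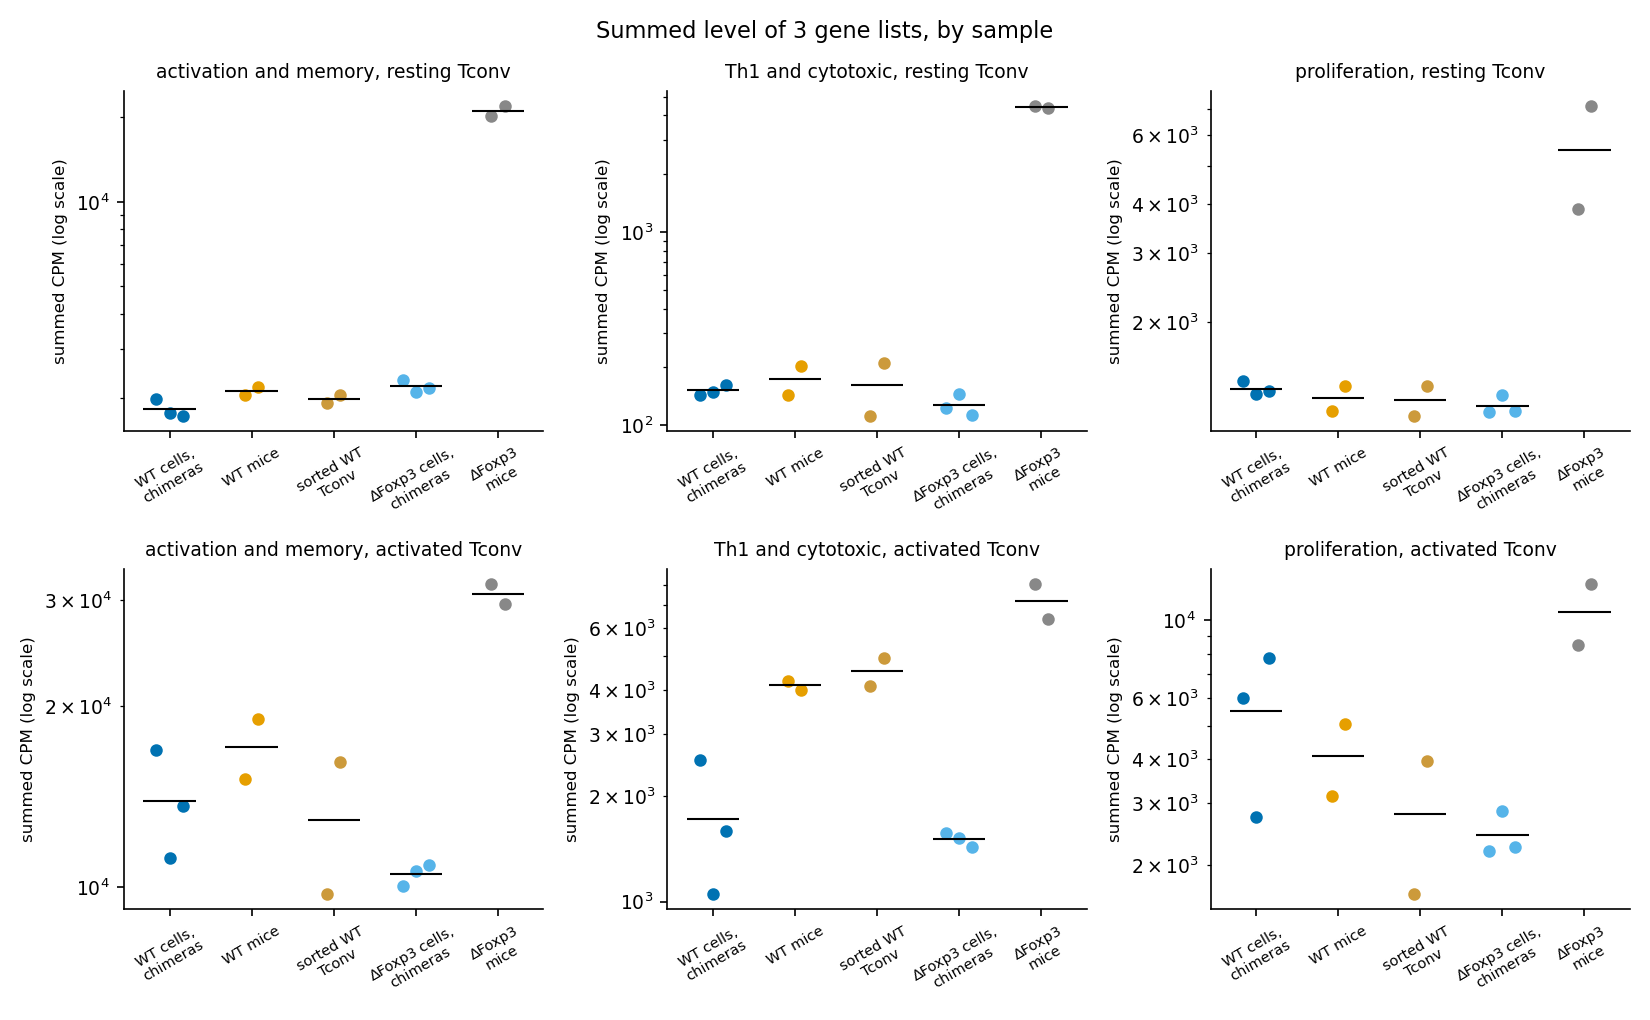
Summed CPM (log scale) of the members of 3 gene lists in resting (top) and activated (bottom) Tconv, with 1 point per sample and lines at group means. In resting Tconv the ∆Foxp3 mice stand at 20204 and 21938 CPM for activation and memory genes, and the other groups between 1734 and 2328 CPM.

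Crip1 was the gene with the lowest adjusted p in resting Tconv. It encodes a small LIM-domain zinc-binding protein that is abundant in memory and effector T cells, and it lies on chromosome 12, 113146316 to 113153879, plus strand (mm10, GENCODE vM21, as are all positions here). Its level was 214, 237 and 172 CPM in the chimera WT samples and 717 and 683 CPM in the intact ones. All 3 chimera values were far below both intact values. The difference was -1.83 (SE 0.10, adjusted p = 9.18e-11), or 3.56-fold lower, and -1.84 (adjusted p = 4.81e-09) without chimera sample 1. Leaving out each sample in turn gave -1.96 to -1.72. Within channel A the values were 237 and 717 CPM, and within channel B 214 and 172 against 683 CPM.

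Among the groups set side by side here, the WT cells of the chimeras were the only ones with a low Crip1 level. It was 673 and 594 CPM in resting cells of the sorted WT Tconv samples, 847, 646 and 734 CPM in the ∆Foxp3 cells of the same chimeras and 2294 and 2547 CPM in ∆Foxp3 mice. The WT cells differed from the ∆Foxp3 cells of the same chimeras by -1.93 (SE 0.094, adjusted p = 1.57e-12), and those ∆Foxp3 cells differed from the intact WT samples by 0.093 (SE 0.10, adjusted p = 0.895). In resting cells 130 genes (1.28%) passed between the WT and ∆Foxp3 cells of the chimeras, 42 higher and 88 lower in the WT cells. The WT and ∆Foxp3 cells of each chimera were in different channels, WT cells in B for chimeras 1 and 3 and in A for chimera 2. With the chimera mouse as a block, which pairs the populations of each mouse but across channels, 102 passed, 98 of them among the 130. The count was 44 without chimera WT sample 1, 49 without chimera WT sample 3, 49 without chimera ∆Foxp3 sample 1 and 66 without chimera ∆Foxp3 sample 3. With library totals in place of TMM factors 75 were higher and 18 lower, and with DESeq2 23 and 91. Between the ∆Foxp3 cells of the chimeras and intact WT cells 67 genes (0.658%) passed, 34 when 1 of the intact samples, whichever it was, was left out, and 42 without chimera ∆Foxp3 sample 3. The share of resting cells with a Crip1 UMI was 42.5, 48.5 and 35.1% in the chimera WT samples, 86.9 and 87.7% in the intact samples and 88.5, 88.2 and 85.5% in the chimera ∆Foxp3 samples. Fewer cells with Crip1 were thus detected in each chimera WT sample, at median depths that overlapped those of the intact ones. These comparisons share the chimera or the intact samples and are given side by side.

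**Figure D4:**
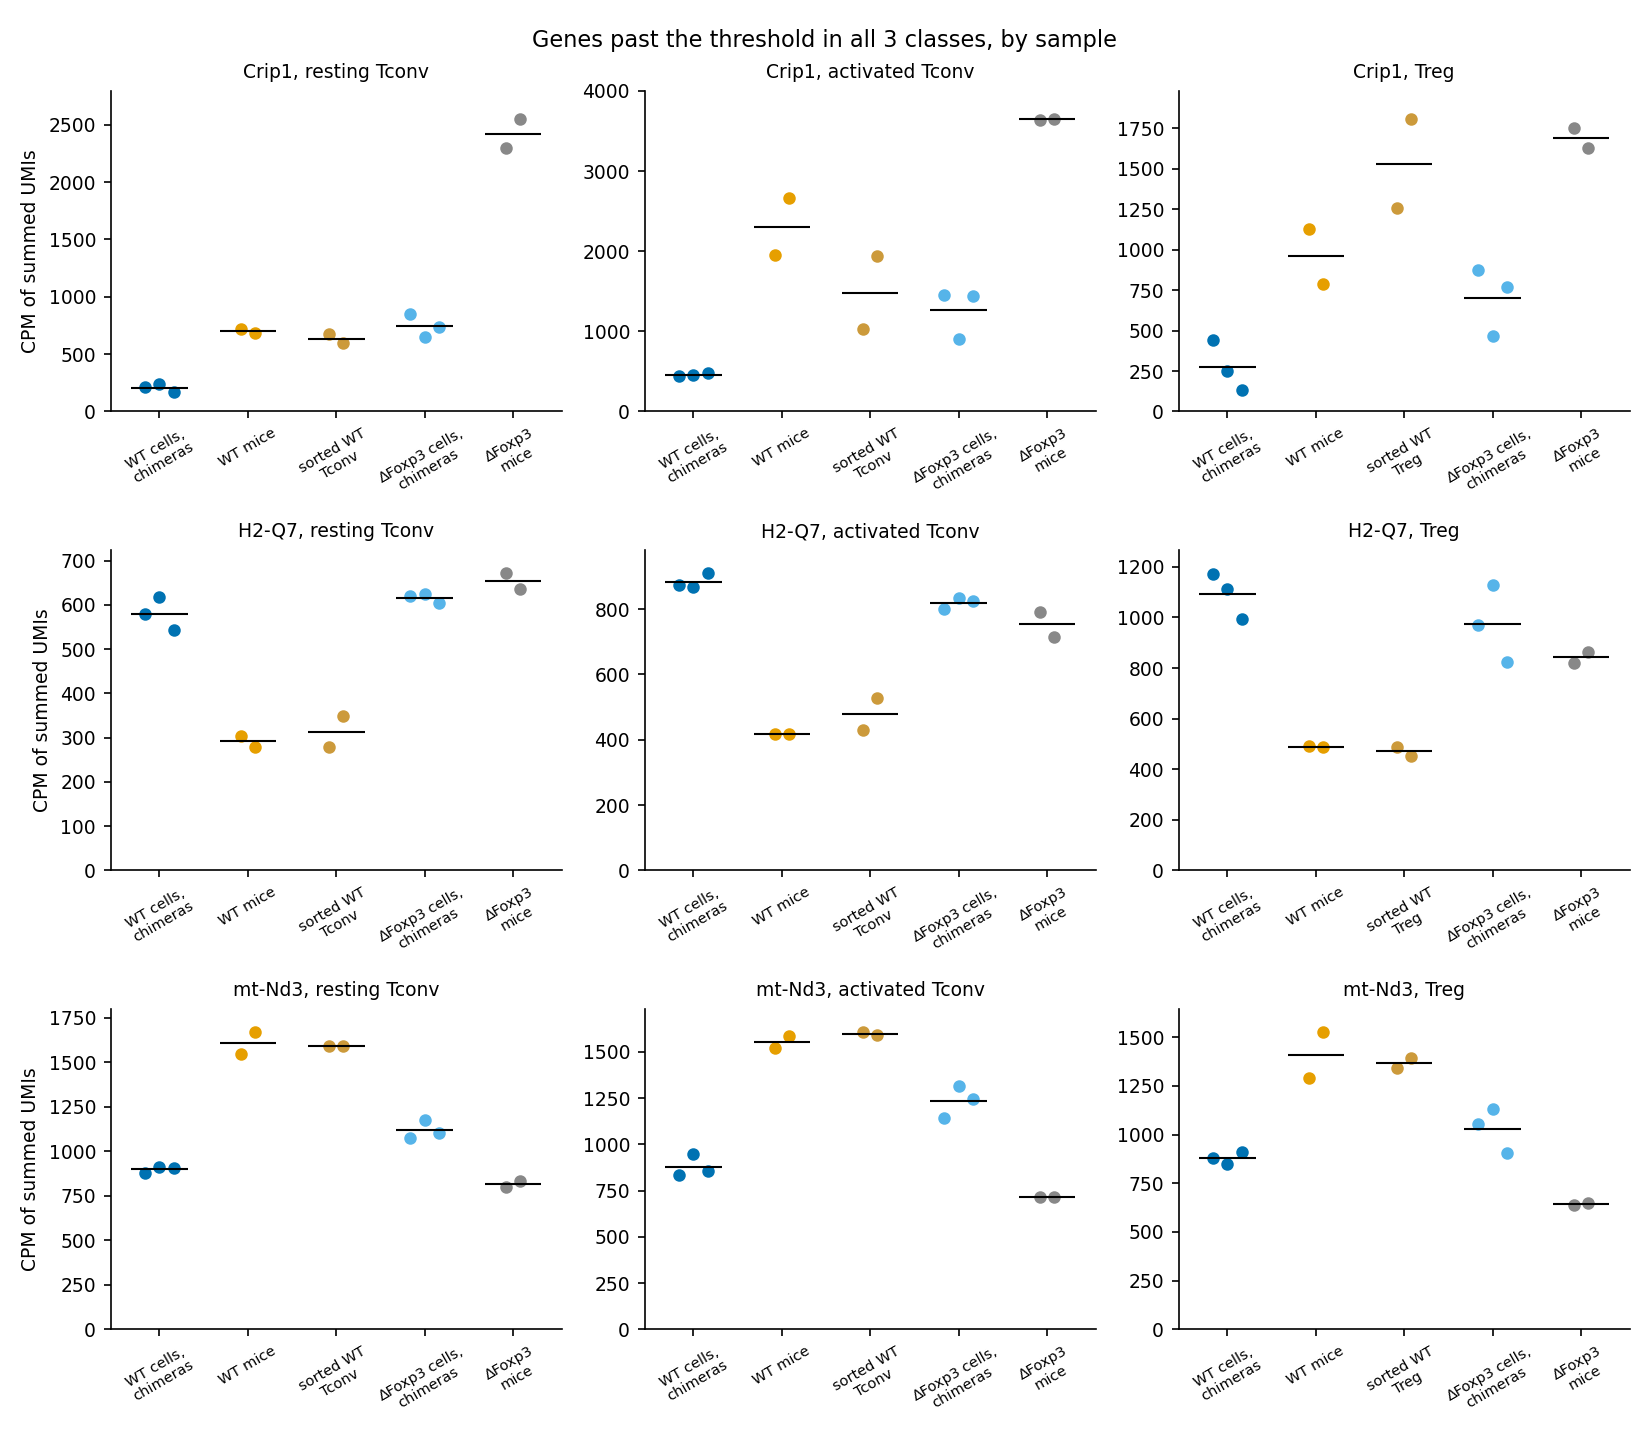
CPM of Crip1, H2-Q7 and mt-Nd3, the 3 genes past the threshold in all classes, with 1 point per sample and lines at group means. Crip1 is lowest in the WT cells of chimeras in each class, H2-Q7 is higher in both chimera populations than in the intact WT samples, and mt-Nd3 is lower in them.

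H2-Q7 and H2-Q6 rose in the resting WT cells of the chimeras. They encode Qa-2, a nonclassical MHC class I protein on the cell surface, and are neighbours on chromosome 17, 35439155 to 35443773, plus strand and chromosome 17, 35424850 to 35430055, plus strand. H2-Q7 was 579, 618 and 543 CPM in the chimera samples and 305 and 279 CPM in the intact ones, and the sorted WT Tconv samples gave 279 and 348 CPM. All chimera values were above all values of intact WT mice. The difference from the intact samples was 0.90 (SE 0.076, adjusted p = 6.06e-08), or 1.86-fold higher, and 0.91 (adjusted p = 6.04e-07) without chimera sample 1. H2-Q6 was 84.7, 82.8 and 86.003 CPM against 28.2 and 37.5 CPM, a difference of 1.33 (SE 0.13, adjusted p = 5.65e-07). The paralogs share most of their sequence, so how reads were split between them is uncertain.

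The ∆Foxp3 cells of the chimeras also had high H2-Q levels. H2-Q7 was 619.9, 625 and 603 CPM in these ∆Foxp3 cells, and the WT cells differed from them by -0.18 (95% interval -0.30 to -0.052, adjusted p = 0.269). H2-Q6 was 88.9, 105 and 87.5 CPM there, with a difference of -0.23 (SE 0.08, adjusted p = 0.285). Neither difference between the chimera populations passed the test. In ∆Foxp3 mice H2-Q7 was 671 and 636 CPM and H2-Q6 209 and 201 CPM. Of 19 genes of MHC class I and antigen processing, H2-Q6 and H2-Q7 were the only ones to pass in the chimera comparison, and the median of the 19 was 0.048. DESeq2 called the same 2 and gave 3 of the 19 no adjusted p. Tap2 had in addition an unadjusted p under 0.05.

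Transcripts encoded by the mitochondrial genome were lower in resting WT cells of the chimeras. Of 12 tested, 9 fell (0.246% of all genes did) and none rose, with a median of -0.37. In ∆Foxp3 mice 11 of them fell (19.2% of all genes did), with a median of -0.87. mt-Nd3, a subunit of respiratory complex I, was 881, 910.3 and 908 CPM in the chimera samples and 1545 and 1671 CPM in the intact ones. Its difference was -0.92 (SE 0.055, adjusted p = 1.16e-10), and -0.90 (adjusted p = 4.81e-09) without chimera sample 1. mt-Nd2, of the same complex, was 2868, 2934 and 2878 CPM against 4479 and 4402 CPM (-0.70). mt-Cytb, of complex III, was 5761, 5956 and 5919 CPM against 7885 and 8317 CPM (-0.55). The other 6 differed by -0.28 (mt-Nd1), -0.43 (mt-Nd4), -0.26 (mt-Co2), -0.37 (mt-Co3), -0.37 (mt-Atp6) and -0.58 (mt-Atp8). The falls were thus unequal among transcripts of 1 genome. With library totals in place of TMM factors mt-Nd1, mt-Co2 and mt-Atp8 no longer passed, and all 9 kept their sign. mt-Nd1 passed in 2 of the 5 fits that leave out a sample, with an adjusted p of 0.0501 without chimera sample 1.

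The median share of mitochondrial UMIs per cell, deposited by the authors, was 5.78, 6.17 and 6.09% in the chimera WT samples, 7.16 and 7.22% in the intact ones and 6.12, 6.25 and 6.27% in the chimera ∆Foxp3 samples. Both chimera populations were below the intact mice. mt-Nd3 was 1072, 1173 and 1105 CPM in the ∆Foxp3 cells of the chimeras, between the chimera WT and the intact levels, and the WT cells differed from them by -0.40 (SE 0.049, adjusted p = 2.68e-05). The sorted WT Tconv samples gave 1589 and 1588 CPM, within the range of the intact samples. Of 26 nuclear genes of the respiratory chain tested, none passed in edgeR, 1 (Atp5e) had an unadjusted p under 0.05 and DESeq2 called none. What part cell quality, age or transplant has in the mitochondrial difference cannot be told apart.

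Of the small nuclear and nucleolar RNAs tested, 5 rose from near 0 in intact WT cells to a low level in the chimera cells. The sequences of the 5 called genes follow, from the mm10 genome at their GENCODE vM21 positions and 5′ to 3′, because the protocol primes on runs of A and these RNAs are known to lack a poly(A) tail. Capitals mark the longest run of A in each, of 3 to 5 bases, and the first of them where runs tie.
Rnu11: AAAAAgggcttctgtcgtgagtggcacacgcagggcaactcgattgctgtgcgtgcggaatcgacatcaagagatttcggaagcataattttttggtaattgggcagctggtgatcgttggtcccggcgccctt
Rnu12: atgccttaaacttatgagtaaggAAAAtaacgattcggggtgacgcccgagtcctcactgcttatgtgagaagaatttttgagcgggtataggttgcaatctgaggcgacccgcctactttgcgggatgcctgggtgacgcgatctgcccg
Rnu3a: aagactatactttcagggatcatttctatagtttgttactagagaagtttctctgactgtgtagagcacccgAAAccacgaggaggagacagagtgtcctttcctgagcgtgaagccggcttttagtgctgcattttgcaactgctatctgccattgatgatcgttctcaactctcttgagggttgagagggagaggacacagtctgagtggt
Gm22513: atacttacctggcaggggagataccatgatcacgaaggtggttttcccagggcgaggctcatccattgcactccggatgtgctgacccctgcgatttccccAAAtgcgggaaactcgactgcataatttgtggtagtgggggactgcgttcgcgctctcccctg
Gm24305: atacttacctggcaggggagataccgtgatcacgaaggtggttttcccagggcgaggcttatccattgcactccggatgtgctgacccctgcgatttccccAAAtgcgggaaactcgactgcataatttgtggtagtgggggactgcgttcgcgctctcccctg
Rnu11 and Rnu12 encode RNAs of the minor spliceosome, and Rnu3a encodes a nucleolar RNA that guides processing of ribosomal RNA. Gm22513 and Gm24305 start with the 5′ end of U1 RNA and are identical at 162 of 164 positions, so UMIs may have been split between them. They lie on chromosome 12, 54696782 to 54696945, plus strand and chromosome 12, 54734555 to 54734718, minus strand. Rnu11 lies on chromosome 4, 132270080 to 132270213, minus strand, Rnu12 on chromosome 15, 83149644 to 83149794, plus strand, and Rnu3a, which has 2 overlapping annotated entries that differ by 1 base in length, on chromosome 10, 40258467 to 40258679, plus strand. The 5 were chosen after their values were seen, from 11 such RNAs that passed the filter on low counts out of 3236 in the matrix. The others of the 11 were not called. The intact samples held 2 and 1 UMIs of Rnu11, 0 and 1 of Rnu12, 3 and 2 of Gm22513 and 1 and 0 of Gm24305. These are under the filter's minimum count of 10, which each of these RNAs reached in every chimera WT sample. Which RNAs were tested thus depended on their level in the chimera cells.

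Rnu11 was 16.02, 20.8 and 24.9 CPM in resting cells of the chimera WT samples and 0.569 and 0.569 CPM in the intact ones. These are 299 UMIs against 3, a ratio of rates of 36.7 (95% exact counting interval 12.4 to 179), with an adjusted p of 7.76e-07. Rnu3a was 17.6, 19.95 and 20.4 CPM against 2.84 and 1.71 CPM, a difference of 2.89 (SE 0.38, adjusted p = 6.83e-05). Both genes were detected in every one of the 5 samples. Gm22513 was 25.3, 23.3 and 27.7 CPM against 0.853 and 1.14 CPM (log2 difference 4.61, SE 0.39, adjusted p = 1.03e-07). Gm24305 had 207 UMIs against 1, a ratio of 76.1 (95% exact counting interval 13.5 to 3022). Rnu12 had 88 UMIs against 1, a ratio of 32.4 (95% exact counting interval 5.66 to 1293), and without intact sample 1 it no longer passed (adjusted p = 0.236). The other 4 passed with each sample left out in turn.

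The ∆Foxp3 cells of the chimeras had the same small RNAs. Rnu11 was 20.02, 20.7 and 28.02 CPM and Rnu3a 18.5, 22.9 and 27.2 CPM in them, and the WT cells differed from these by -0.25 (SE 0.16, adjusted p = 0.897) and -0.32 (SE 0.16, adjusted p = 0.758). Gm22513 was 13.5, 15.8 and 20.2 CPM, with a difference of 0.51 (SE 0.15, adjusted p = 0.115). In ∆Foxp3 mice Rnu11 was 3.62 and 1.24 CPM, and Gm22513 and Gm24305 had 0 UMIs in both samples. The sorted WT Tconv samples gave 1.21 and 1.404 CPM of Rnu11. Each of the 5 RNAs was thus higher in all 6 chimera samples than in any sample of the intact WT, sorted Tconv or ∆Foxp3 mice. The 5 had been chosen by their chimera WT and intact values, so that part of the order follows from the choice. The chimera and intact WT samples shared both channels, and within channel A Rnu11 was 20.8 against 0.569 CPM.

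**Figure D5:**
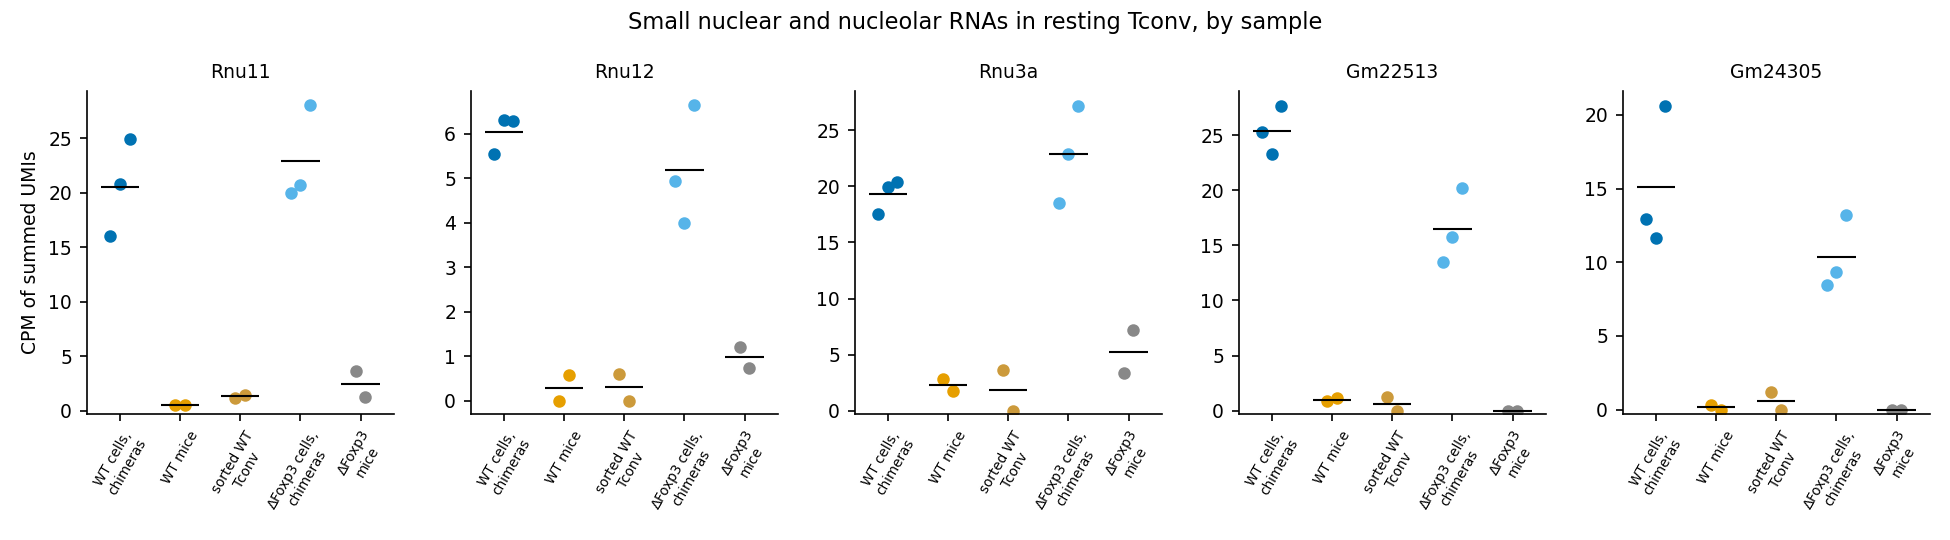
CPM of 5 small nuclear and nucleolar RNAs in resting Tconv, with 1 point per sample and lines at group means. For each RNA the 6 chimera samples lie above all samples of intact WT and ∆Foxp3 mice, and for Rnu3a the gap is from 7.19 to 17.6 CPM.

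Auts2, a nuclear protein associated with Polycomb complexes, and Gm15446, a predicted gene, were lower in resting cells of the chimeras at a low level. Auts2 (chromosome 5, 131437333 to 132543344, minus strand) was 2.46, 3.79 and 1.26 CPM in the chimera WT samples, 16.5 and 20.5 CPM in the intact ones and 22.9 and 15.4 CPM in the sorted WT Tconv samples. The difference was -2.81 (SE 0.38, adjusted p = 0.000138). In the ∆Foxp3 cells of the chimeras it was 0.592, 2.67 and 0.9202 CPM and in ∆Foxp3 mice 0.906 and 0.248 CPM. Auts2 was thus high only in the intact WT mice of 9 weeks among the groups set side by side here. Gm15446 (chromosome 5, 109923400 to 109943936, plus strand) was 2.77, 0.984 and 1.01 CPM against 8.25 and 7.39 CPM (log2 difference -2.55, SE 0.41, adjusted p = 0.00136). It was 8.19, 8.45 and 7.98 CPM in the ∆Foxp3 cells of the chimeras, from which the WT cells differed by -2.60 (SE 0.32, adjusted p = 2.68e-05), and 7.24 and 1.404 CPM in the sorted WT Tconv samples. Without intact sample 1 the adjusted p of Gm15446 was 0.131. Both genes fall under the 20 CPM of the rule for named genes and were chosen after their values were seen.

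A further 7 genes were modestly lower in the resting WT cells of the chimeras. Dapl1, a marker of naive T cells, was 335, 341 and 349 CPM against 446 and 447 CPM (log2 difference -0.47, SE 0.10, adjusted p = 0.0225). Ly6c1 was 152, 146 and 151 CPM against 235 and 189 CPM (log2 difference -0.61, SE 0.13, adjusted p = 0.0314) and Ly6a 279, 296 and 339 CPM against 418 and 360.1 CPM (log2 difference -0.45, SE 0.092, adjusted p = 0.0241). Both are GPI-anchored proteins of the Ly6 family, of which 2 of 6 tested fell (0.246% of all genes did) and none rose. Dapl1 and Ly6c1 were 443, 502 and 391 CPM and 212, 168 and 244 CPM in the ∆Foxp3 cells of the chimeras, from which the WT cells differed by -0.47 (SE 0.082, adjusted p = 0.00323) and -0.58 (SE 0.11, adjusted p = 0.00433). Klk8, a kallikrein protease, fell by 0.50 on the log2 scale, Sepp1 (selenoprotein P) by 0.41, Klrd1 (the CD94 receptor of NK cells) by 0.71 and Nacc2 by 0.73. None of these 7 genes passed in more than 2 of the 5 fits that leave out a sample, and without chimera sample 1 their adjusted p values lay between 0.058 (Nacc2) and 0.122 (Ly6a).

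Ribosomal protein genes were slightly lower in resting cells of the chimeras. Rpl28, Rpl32, Rps7, Rps15a and Rps26 passed the test, with differences between -0.25 (Rpl28) and -0.19 (Rps7), and none rose. Rpl28 and Rps26 passed in 4 of the 5 fits that leave out a sample, Rpl32 in 2, and Rps7 and Rps15a in none. Without chimera sample 1 the adjusted p was 0.0822 for Rpl32, 0.168 for Rps7 and 0.194 for Rps15a. Over the 81 ribosomal protein genes tested, a list set after the values were seen, the median was -0.16 and none was above 0. In all 5 genes the WT cells also passed as lower than the ∆Foxp3 cells of the same chimeras, with differences of -0.18 for Rps26 (adjusted p = 0.0186) and -0.20 for Rpl32 (adjusted p = 0.00482). With the mouse as a block Rpl28 did not pass in that comparison (-0.17, adjusted p = 0.064), and without chimera WT sample 1 none of the 5 did, with adjusted p values from 0.0522 (Rpl32) to 0.183 (Rpl28). These small differences depend on the scaling: with library totals in place of TMM factors none of the 5 passed in either comparison, and all kept their sign.

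A Treg gene was among those that rose in resting cells. Ikzf2, which encodes the Treg transcription factor Helios, was 26.8, 17.4 and 15.6 CPM in the chimera samples, 4.55 and 10.8 CPM in the intact ones and 3.62 and 2.81 CPM in the sorted GFP- Tconv samples (log2 difference 1.44, SE 0.32, adjusted p = 0.0492). It was 177 and 161 CPM in resting cells of ∆Foxp3 mice. Beside it, GFP UMIs were found in 4.85, 1.6 and 2.12% of resting cells of the chimera samples and in 0.456 and 1.98% of the intact ones. Of 26 Treg genes in resting cells 1 rose (Ikzf2), beside 0.137% of all genes, and the median was 0.54. At an unadjusted p under 0.05, 8 were higher and 1 lower, beside 817 of 10182 genes tested in either direction. DESeq2 called none but gave 24 of the 26 no adjusted p. Whether Treg annotated as resting Tconv contribute was not tested. Ikzf2 passed in 1 of the 5 fits that leave out a sample.

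Casp1, the inflammatory caspase, was 13.9, 11.5 and 13.8 CPM in resting cells of the chimera samples and 1.99 and 6.83 CPM in the intact ones (log2 difference 1.72, SE 0.36, adjusted p = 0.0314). The ∆Foxp3 cells of the chimeras gave 11.7, 18.7 and 11.9 CPM and ∆Foxp3 mice 96.3 and 103 CPM. Traf1, an adaptor of TNF receptors, was 49.3, 55.9 and 56.3 CPM against 35.5 and 33.6 CPM (log2 difference 0.55, SE 0.12, adjusted p = 0.0492), with 103 and 107 CPM in ∆Foxp3 mice. For both genes the chimera samples were above the intact ones and well below the ∆Foxp3 mice. Dnpep, an aminopeptidase, rose by 0.76, the histone gene Hist4h4 by 2.56 and the noncoding RNAs B930036N10Rik and Gm26917 by 1.38 and 1.49. Each of these 6 passed in at most 2 of the 5 fits that leave out a sample.

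The other gene groups held at most 1 called gene in resting cells. Of 40 genes induced by type I interferon, 1 fell (Ly6a) and none rose, with a median of -0.027. No member of the following groups passed in edgeR. An unadjusted p under 0.05 was found for 1 of 16 interferon-gamma induced GTPases, 1 of 16 glycolysis genes and 3 of 17 sterol synthesis genes (median 0.19). It was found for 2 of 15 IL-2 and STAT5 targets, 2 of 18 homing receptors, 1 of 13 heat shock chaperones and 1 of 14 p53 targets. Immediate early genes had such a p in 8 of 19 (3 higher, 5 lower), a larger share than the 817 of 10182 over all genes tested. DESeq2 called none in these groups and gave no adjusted p to between 4 of 13 (heat shock) and 17 of 17 (sterol synthesis) of their members. CD5, whose level follows T cell receptor signal strength, is encoded by Cd5, which was 215, 213 and 217 CPM against 161 and 166 CPM (log2 difference 0.31, SE 0.071, adjusted p = 0.0536), and Id3 was 151, 137 and 144 CPM against 96.4 and 111 CPM (log2 difference 0.40, SE 0.10, adjusted p = 0.0743). Both missed the threshold in edgeR and were called higher by DESeq2. The summed level of 12 CD4 T cell identity genes was 6058, 5756 and 5842 CPM against 5737 and 5844 CPM.

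Markers of other cells were low in the resting class. Summed B cell markers were 204, 196 and 217 CPM in the chimera samples and 222 and 204 CPM in the intact ones, myeloid markers 88.1, 82.1 and 85.8 CPM and 78.2 and 92.2 CPM, and CD8 T and NK cell markers 44.97, 42.4 and 46.3 CPM and 50.3 and 42.7 CPM. The summed level of the erythroid list was 6.78, 84.6 and 298 CPM in the chimera samples and 14.5 and 6.83 CPM in the intact ones. Of the haemoglobin UMIs, 498 of 566 in chimera sample 2 and 1163 of 1171 in chimera sample 3 came from 1 cell each. No erythroid gene passed in edgeR, and 5 of 5 tested had an unadjusted p under 0.05. DESeq2 gave none of the 5 an adjusted p and so could not call any. Among 4 markers of CD8 T and NK cells, Klrd1 fell, as given above.

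In activated Tconv, 4 of 8744 genes passed (0.0457%), and 486 had an unadjusted p under 0.05. H2-Q7 rose (0.0114%) and Crip1, mt-Nd3 and Gm15446 fell (0.0343%), and all 4 were also called in resting cells in the same direction. The same fit called 875 genes (10%) between ∆Foxp3 mice and the shared intact samples, and between 175 and 450 with each of those 4 samples left out, the lowest without intact sample 1. Without chimera sample 1, 8 genes passed, and with the channel as a term 11, each time with the 4 among them. Class sums rested on 159, 313 and 153 cells in the chimera samples and 119 and 70 cells in the intact ones.

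Crip1 was 438, 453 and 476 CPM in activated cells of the chimera samples and 1957 and 2658 CPM in the intact ones. The difference was -2.41 (SE 0.21, adjusted p = 5.4e-05), and -2.60 to -2.21 with each sample left out in turn. It was 1033 and 1936 CPM in the sorted WT Tconv samples, 1454, 904 and 1439 CPM in the ∆Foxp3 cells of the chimeras and 3637 and 3654 CPM in ∆Foxp3 mice. The chimera WT cells were again the lowest of all groups, with 38.4, 54.3 and 35.9% of cells holding a Crip1 UMI against 94.96 and 88.6% in the intact samples. H2-Q7 was 875, 867 and 911 CPM against 419 and 419 CPM (log2 difference 1.004, SE 0.10, adjusted p = 0.000236), and 800.1, 835 and 825 CPM in the ∆Foxp3 cells of the chimeras. mt-Nd3 was 833, 949 and 858 CPM against 1517 and 1582 CPM (log2 difference -0.89, SE 0.10, adjusted p = 0.000666). These 3 genes passed with each sample left out. Gm15446 had 3 UMIs against 19, a ratio of 0.0477 (95% exact counting interval 0.00905 to 0.162), and an adjusted p of 0.0184 that held in 1 of the 5 fits that leave out a sample.

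Th1 genes had a lower summed level in activated cells of the chimeras, but no member of the list passed the test. The sum over the list was 2537, 1052 and 1588 CPM in the chimera WT samples and 4257 and 4002 CPM in the intact ones. It was 4122 and 4948 CPM in the sorted WT Tconv samples and 1574, 1521 and 1434 CPM in the ∆Foxp3 cells of the chimeras. Both chimera populations thus lay below all samples of intact WT mice. Of 18 genes tested, none passed in edgeR, 5 had an unadjusted p under 0.05 with a lower level (Tbx21, Ccl5, Ccl4, Gzmk and Nkg7), DESeq2 called none, and the median was -0.42. The Th1 cluster made up 16.98, 16.6 and 18.3% of activated cells in the chimera samples and 31.9 and 20% in the intact ones. In ∆Foxp3 mice 7 of the list rose (5.31% of all genes did) and none fell, with a median of 1.19.

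Ccl5 made up much of that sum in activated cells. It was 1250.1, 244 and 418 CPM in the chimera samples and 2858 and 2586 CPM in the intact ones, with 654, 645 and 686 CPM in the ∆Foxp3 cells of the chimeras (log2 difference -2.18, SE 0.41, adjusted p = 0.0726). Ly6c2, a surface protein of effector T cells, was 83.6, 12.5 and 24.2 CPM against 142 and 160.2 CPM (log2 difference -2.07, SE 0.46, adjusted p = 0.17). Chimera sample 1 was the highest of the chimera samples for both genes. Without it both passed, Ccl5 at -3.12 (adjusted p = 8.26e-06) and Ly6c2 at -3.18 (adjusted p = 0.00023). Over 15 alternatives Ccl5 passed in 8, with adjusted p values between 1.9e-63 and 0.776, and Ly6c2 in 3. Nkg7, a protein of cytotoxic granules, was 269, 158 and 258 CPM against 399 and 391 CPM (log2 difference -0.88, SE 0.25, adjusted p = 0.71).

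Other gene groups held at most 1 called gene in activated cells. Of 28 activation and memory genes Crip1 fell and none rose (median -0.04, beside 0.0124 over all genes). In ∆Foxp3 mice 9 of them rose (5.31% of all genes did) and none fell (median 0.74). Their summed level was 16904, 11173 and 13623 CPM against 15137 and 19070.0 CPM, with overlap between the groups. Of 29 cell cycle genes none passed, none had an unadjusted p under 0.05 and DESeq2 called none (median 0.46). Their summed level was 6001, 2744 and 7799 CPM in the chimera samples and 3143 and 5039 CPM in the intact ones. In ∆Foxp3 mice 5 of these cell cycle genes rose, beside 5.31% of all genes. Of 12 mitochondrially encoded transcripts mt-Nd3 fell and none rose (median -0.33). H2-Q6 was 146, 156 and 151 CPM against 63.4 and 96.1 CPM (log2 difference 0.88, SE 0.19, adjusted p = 0.156).

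The small RNAs were found in activated cells at levels that did not pass the test. Rnu3a had 64 UMIs in the chimera samples and 0 in the intact ones, or at least 6.45-fold higher when 3 UMIs are set for the whole intact group. Gm24305 had 61 against 0 UMIs, at least 6.15-fold higher. Rnu11 had 103 against 2 UMIs, a ratio of 15.6 (95% exact counting interval 4.201 to 130.3). These intervals and floors cover counting error only.

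In Treg, 4 of 6136 genes passed (0.0652%), and 303 had an unadjusted p under 0.05. H2-Q7 rose (0.0163%) and Crip1, mt-Nd3 and Plac8 fell (0.0489%). The intact samples held only 37 and 29 Treg, against 73, 162 and 74 in the chimera samples, so small differences were not detectable at this depth. The same fit called 435 genes (7.09%) between the cells classed as Treg in ∆Foxp3 mice and the shared intact samples, 208 without intact sample 1 and 250 without ∆Foxp3 sample 2. Without chimera sample 1 the same number passed, with all 4 among them. Without chimera sample 2 the count was 2 and without intact sample 1 it was 1, H2-Q7.

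H2-Q7 was 1172, 1111 and 996 CPM in Treg of the chimera samples, 491 and 489 CPM in the intact ones and 488 and 453 CPM in the sorted WT Treg. The difference from the intact samples was 1.10 (SE 0.15, adjusted p = 0.000256). Crip1 was 442, 251 and 134 CPM against 1126 and 790.2 CPM, and 1256 and 1806 CPM in the sorted WT Treg (log2 difference -1.89, SE 0.27, adjusted p = 0.000256). Both genes thus moved in the same direction in Treg as in the other classes, although the chimera samples spread more widely for Crip1. DESeq2 did not call Crip1, and without intact sample 1 its adjusted p was 0.143. mt-Nd3 was 882, 851 and 911 CPM against 1289.9 and 1524 CPM (log2 difference -0.73, SE 0.13, adjusted p = 0.00625). It did not pass without chimera sample 2, and leaving out each sample in turn gave -0.80 to -0.66. Plac8, a small cysteine-rich protein, had 1 UMI against 23, and its intact UMIs came from 4 and 3 cells. The ratio was 0.0103 (95% exact counting interval 0.000249 to 0.0633), with an adjusted p of 0.00965. Plac8 did not pass with DESeq2, without chimera sample 2 or without chimera sample 3. H2-Q7 did not pass with cells thinned to 1500 UMIs, so none of the 4 Treg calls held under every alternative.

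Genes of the Treg programme did not differ detectably between Treg of chimeras and of intact mice. Of 25 tested, none passed in edgeR, 4 had an unadjusted p under 0.05 and DESeq2 called none, with a median of 0.18 beside -6.84e-05 over all genes. In the cells classed as Treg in ∆Foxp3 mice 1 rose and 9 fell (3.6% and 3.49% of all genes did), with a median of -0.95 beside 0.00753. Il2ra, the alpha chain of the IL-2 receptor, was 227, 231 and 256 CPM against 208 and 159 CPM, a difference of 0.30 (95% interval -0.19 to 0.78). Ctla4, an inhibitory receptor, was 407, 307 and 258 CPM against 268 and 483 CPM (-0.26, 95% interval -0.72 to 0.19), and Ikzf2 748, 708 and 484 CPM against 382 and 614 CPM (0.34, 95% interval -0.11 to 0.79). All 3 intervals include 0 and reach differences of more than 0.5 in 1 direction or both. Of 27 activation and memory genes in Treg, Crip1 fell and none rose (median 0.019), while 16 rose and 1 fell in ∆Foxp3 mice (median 1.44).

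The sorted controls gave a further comparison with intact WT mice of 9 weeks. Against sorted GFP- Tconv, with resting and activated cells summed, 19 of 10743 genes passed (0.177%, and 838 at an unadjusted p under 0.05). H2-Q7, H2-Q6, Gm22513, Gm24305, Rnu11 and Rnu3a were higher. Crip1 (-1.76), Auts2 (-3.14), Gramd3, Btg2, Pde3b, Sepp1 and 7 mitochondrially encoded genes were lower. The chimera samples are shared with the comparison above, so the lists are not independent. The count was 11 without chimera sample 1, 10 without chimera sample 3 and 7 without sorted sample 1, and 38 with the channel as a term.

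Against sorted GFP+ Treg, 28 of 6136 genes passed in the Treg class (0.456%), 4 higher (0.0652%) and 24 lower (0.391%). H2-Q7 (1.20), H2-Q6, Casp1 and Gpm6b were higher in the chimera Treg. The lower genes included Crip1 (-2.50), mt-Nd3 (-0.65) and Plac8, cell cycle genes such as Mki67, Top2a, Birc5 and Stmn1, and Klrg1, Lgals1, Lgals3, S100a6, S100a10 and Vim. Mki67, a marker of dividing cells, was 5.05, 16.8 and 7.04 CPM in the chimera Treg, 9.92 and 5.69 CPM in the unsorted intact Treg and 40.97 and 95.1 CPM in the sorted Treg. Klrg1 was 63.2, 36.1 and 25.8, 34.7 and 90.96 and 89.8 and 134 CPM in the same order. The sorted Treg also held clusters that were at 0% in the chimera and unsorted intact samples: Treg_furtive with 25.1 and 14.7%, Treg_tissue-like with 10.3 and 16.9% and Treg_dividing with 1.51 and 5.19%. The unsorted intact Treg were at a low level of Mki67 too, and the classes were reached in different ways, by GFP sort in 1 group and by annotation in the others. The count was 22 without chimera sample 1, 4 without chimera sample 2, 17 without chimera sample 3 and 7 without sorted sample 2, 44 without sorted sample 1, and was 7 with DESeq2.

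With all cells of a sample summed, 20 of 10918 genes passed between chimera and intact WT samples (0.183%), 8 higher (0.0733%) and 12 lower (0.11%), and 760 had an unadjusted p under 0.05. The same number passed without chimera sample 1, with 15 genes in common, and 9 passed without intact sample 1. Crip1 differed by -2.03 (SE 0.14, adjusted p = 1.57e-06), H2-Q7 by 0.96 (SE 0.085, adjusted p = 2.17e-05) and mt-Nd3 by -0.93 (SE 0.061, adjusted p = 1.45e-06). With library totals in place of TMM factors the median over all genes went from 0.00323 to 0.107, and in the comparison with sorted Tconv from 0.0173 to 0.126.

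Whether the chimera difference itself differed between resting and activated cells was tested as an interaction. Of 9122 genes, 2 passed (0.0219%), Penk and Xcl1, and 441 had an unadjusted p under 0.05. Of the Xcl1 and Penk UMIs of activated cells in chimera sample 2, 248 of 253 and 54 of 60 came from 1 cell each. Without chimera sample 1 the count was 3, with 1 of the 2 among them, and without chimera sample 2 it was 3 with neither among them. With cells thinned to 1500 UMIs 5 passed, again with neither. Crip1 fell by 1.83 in resting, 2.41 in activated and 1.89 in Treg cells on the log2 scale, and the difference between resting and activated cells did not pass.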

How the data were processed

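Cell counts, annotation and UMI counts came from the deposited single-cell matrix and cell table (10x 3′ V3 libraries, Cell Ranger 3.0.2 and mm10 per the submitters' processing notes). The authors deposited whole-number UMI counts per gene and cell, the percent of mitochondrial UMIs, and a Scrublet doublet score, per the file headers. Their classes and clusters were used unchanged, and no cell was removed. UMI counts were summed per sample and class and fitted with edgeR 4.0.16 (quasi-likelihood, TMM, filterByExpr with a minimum count of 10) over the V3 samples with at least 20 cells in the class, with Benjamini-Hochberg adjustment over all genes tested and a threshold of 0.05. R 4.3.3, limma 3.58.1, DESeq2 1.42.0 and Python 3.11.15 were used, and the scripts were tested on simulated data. Printed CPM values use library totals, and fold changes also use TMM factors. The rule for named genes required a call, a mean level of 20 CPM and separate groups, and took the 10 strongest changes in each direction (5 in Treg and against sorted samples). Foxp3 and the 4 lowest p values of every list were added. Other genes named were chosen after their values were seen. The members and lists were chosen with earlier results of these data known. The matrix row for Foxp3 is a sum that includes GFP and Cre, so Foxp3 was taken apart from them. Replicate numbers pair the WT and ∆Foxp3 samples of a chimera, which carry the same hashtag, but not chimera and intact samples. Of the table's columns, 37 were not used.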

Additional observations from a re-analysis of the deposited data

Results flagged for a closer look

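The effect of the chimera on 2 genes differed between resting and activated Tconv by the edgeR interaction test (n = 3 chimera and 2 intact samples). The difference of differences was -7.13 on the log2 scale for Penk, which encodes the opioid precursor proenkephalin, and -7.33 for Xcl1, a chemokine (adjusted p = 0.0398 for both).

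Both genes were found in few cells. In activated cells Xcl1 had 24, 253 and 9 UMIs in the chimera samples and 5 and 0 in the intact ones, and 248 of the 253 came from 1 cell. In resting cells it had 1, 2 and 5 UMIs against 1 and 25, and the 25 came from 1 cell. Penk had 30, 60 and 4 UMIs against 0 and 1 in activated cells, with 54 of the 60 from 1 cell, and 6, 2 and 2 UMIs against 1 and 16 in resting cells, with 15 of the 16 from 1 cell. Leaving out intact sample 1 left 1 gene past the threshold, and leaving out chimera sample 3 gave 6. Neither Penk nor Xcl1 passed without chimera sample 2, without intact sample 2 or with cells thinned to 1500 UMIs, and 1 of them passed without chimera sample 1.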

How the results depend on the processing

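In all, 225 of the 302 alternative values of counts and shares kept their side of the threshold or stayed within 1.5 times, as did 694 of 906 for single genes. With DESeq2 the count of called genes was 67 in resting Tconv (6 higher, 61 lower), 9 in activated Tconv, 69 against sorted Tconv, 7 against sorted Treg and 282 for ∆Foxp3 mice in Treg. Without the filter on low counts it was 99 in resting, 74 in activated, 11 in Treg, 131 in all cells, 177 against sorted Tconv, 86 against sorted Treg, 225 between the WT and ∆Foxp3 cells of the chimeras, 115 between the latter and intact WT cells, 1377 for ∆Foxp3 mice in activated cells and 16 for the interaction. With the channel as a term it was 73 in resting, 11 in activated and 38 against sorted Tconv. With cells thinned to 1500 UMIs it was 2 in Treg, 11 against sorted Tconv, 3 against sorted Treg, 1622, 266 and 106 for ∆Foxp3 mice in the 3 classes, 22 between ∆Foxp3 cells of the chimeras and intact WT cells and 5 for the interaction. Without mitochondrial and small RNA genes, an alternative added after seeing the data, it was 12 in resting, 6 in all cells, 4 against sorted Tconv and 43 between ∆Foxp3 cells of the chimeras and intact WT cells. Without NKT cells and cells with other markers it was 10 in activated cells and 4 for the interaction, and without the dividing, Tfh and NKT clusters (also added) 19 in activated cells. With only the groups compared it was 46 against sorted Treg. With library totals in place of TMM factors, resting calls were 17 higher and 10 lower against 14 and 25. The cause was not tested for any of these.

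With each sample left out in turn the counts were 21 to 29 in resting, 3 to 8 in activated, 1 to 4 in Treg, 9 to 20 in all cells, 7 to 18 against sorted Tconv, 4 to 44 against sorted Treg, 2633 to 4063, 175 to 450 and 208 to 339 for ∆Foxp3 mice in the 3 classes, 44 to 98 between WT and ∆Foxp3 cells of the chimeras, 34 to 58 between the latter and intact WT cells, and 1 to 6 for the interaction. Intact sample 1 gave the lowest count in resting, Treg and all cells. A group left with 1 sample was assumed to vary like the others. The log2 ratio of Tconv_activated_2 was 1.54 to 2.01. Of the log2 ratios of shares that did not pass, activated (-0.0866 to 0.357), resting (-0.165 to 0.00452) and Treg_activated (-0.0263 to 1.48) turned sign without intact sample 1, NKT (-0.978 to 6.54e-05) without intact sample 2, and Tconv_resting_TCRhi (up to 0.136) without chimera sample 2 (-0.0811), chimera sample 3 (-0.0247) or intact sample 2 (-0.0695).

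With the replicate number as a block, 36 genes passed in resting, 8 in activated, 4 in Treg, 20 in all cells, 16 against sorted Tconv, 44 against sorted Treg and 4137, 876 and 516 for ∆Foxp3 mice, and the share of Tconv_resting_TCRhi turned to -0.0248. Deviations of same-numbered chimera and intact samples had correlations of -0.0665 and -0.099 in resting, -0.0277 and -0.0678 in activated and -0.0222 and 0.0524 in Treg. The 2 intact samples deviate from their mean as mirror images, and same-numbered samples lay in different channels. These correlations thus cannot separate number from channel. WT and ∆Foxp3 samples of 1 chimera were taken to share a mouse, by replicate number and tag, but do not share a channel. With that mouse as a block (added after seeing the data) 102 genes passed between them against 130 without it.

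Single genes that turned sign were not called, except Ccl5. Without intact sample 1, Cd44 (-0.50) and S100a4 (-0.72) in resting cells and Ctla4 in Treg (-0.59) kept theirs. In resting cells Cd44 was 0.073 without TMM factors, 0.0095 without NKT cells and cells with other markers, 0.019 in the largest cluster, 0.061 without chimera sample 2 and 0.35 without intact sample 2. S100a4 was 0.031 when thinned, 0.18 in the largest cluster and 0.34 without intact sample 2, and Ccl5 was 0.25 in the largest cluster. Ctla4 in Treg was 0.10 when thinned and 0.16 without intact sample 2.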
